A study of Rousettus aegyptiacus with 32 samples.

Results

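Open chromatin was compared between the caudate nucleus and the putamen of the Egyptian fruit bat (Rousettus aegyptiacus), using all 4 ATAC-seq libraries of the striatum. They were chosen by their labelled tissue: 1 caudate and 1 putamen library from each of 2 adult males, bat 1 and bat 3, out of 20 ATAC-seq libraries and 32 samples in all. ATAC-seq uses a transposase to tag DNA that is not packed into nucleosomes, so a peak marks a stretch of open chromatin such as a promoter or an enhancer. The labels name no treatment or genetic change, and no strain. Nuclei came from frozen bulk tissue, so every value averages over neurons, glia and vascular cells. In bulk tissue, fewer cells of a type and less open chromatin per cell cannot be told apart. The other 16 ATAC-seq libraries came from the same 2 bats and covered 4 cortical areas (the secondary auditory cortex, the premotor cortical area and the orofacial and wing regions of the primary motor cortex), cerebellum, liver, pectoralis muscle and testis.

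The caudate and the putamen together form the dorsal striatum, the main input station of the basal ganglia. Both are built largely of medium spiny neurons, inhibitory projection neurons driven by cortical input and tuned by dopamine. In mammals the caudate is known for links with associative cortex and the putamen for links with sensory and motor cortex, and the fibre bundles of the internal capsule lie between them. Since genes could not be placed on the scaffolds of the peak lists, regions are given by position and by their openness in other tissues, and the labelled tissue could not be checked against marker genes.

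After rows for the same interval were joined, the lists held 168369 to 189995 intervals covering 105 to 127 Mb. Every list stopped at 300000 rows, and the weakest peak kept had a -log10 p of 12.3 and 4.65 in the caudate of bats 1 and 3, and of 6.45 and 5.71 in the putamen. A peak missing from a list may therefore be weak and not absent, so intervals were ranked within each list by -log10 p, with rank 1 the strongest. The median fold enrichment of the 50000 strongest intervals was 12.1 and 12.8 in the caudate of bats 1 and 3, 11.98 in the putamen of bat 1 and 9.66 in the putamen of bat 3. Over all intervals the median was 5.12 and 5.14 in the caudate of bats 1 and 3, and 4.55 and 4.41 in the putamen. Both putamen libraries were thus lower than both caudate libraries. This difference in enrichment cannot be told apart from the part, and whether it bears on the results below was not tested. The putamen library of bat 3 was the lowest of the 4, and counts and cortical shares without it are given below. Joining intervals that overlapped by at least 1 base pair gave 229322 regions, of which 127314 (55.5%) had a peak in all 4 libraries.

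The 2 caudate libraries were the most alike of any pair. Their peaks shared 0.696 of their joint base pairs (Jaccard index), and their ranks over the 127314 regions had a Spearman correlation of 0.937. The 2 putamen libraries shared 0.671 with a rank correlation of 0.885. Caudate and putamen of bat 1 also shared 0.671, and their rank correlation was 0.869. Caudate and putamen of bat 3 shared 0.639 with a correlation of 0.829. The pairs that differed in both bat and part shared 0.645 and 0.644, with correlations of 0.830 and 0.841. Both same-part pairs thus had higher rank correlations than the 4 pairs across parts, while by shared base pairs the putamen pair and the pair from bat 1 were level. With 2 libraries against 2 the smallest exact 2-sided permutation p is 0.333, so these values are a description.

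Almost no strong region of one part lacked a peak in the other, where 1 base pair of overlap was enough. A region is called strong here where it is among the 50000 strongest intervals of a list, and 64392 regions were strong in at least 1 library and 37010 in all 4. Only 4 regions (0.00621% of those strong in any library) were strong in both caudate libraries with no peak in either putamen library, and 5 (0.00776%) the reverse. The same count between the 2 bats, with caudate and putamen of an animal on the same side, gave 40 (0.0621%) for bat 1 and 21 (0.0326%) for bat 3. The crossed division, caudate of one bat with putamen of the other, gave 0 both ways. At this threshold the counts between bats were above those between parts, and the order turned with the 100000 strongest intervals: 529 for caudate and 559 for putamen against 307 for bat 1 and 185 for bat 3. Over peaks of any rank, 9523 of all regions (4.15%) had a peak in both caudate libraries and in neither putamen library and 9066 (3.95%) the reverse, against 6893 (3.01%) and 2912 (1.27%) between bats 1 and 3 and 1420 (0.619%) and 2762 (1.2%) when crossed. Ordered by the lower of the 2 -log10 p, which are not scaled between lists, the first caudate region was NW_023416292.1:39149164-39149885, with ranks in the full lists of 43718 and 20222 in bats 1 and 3 and folds of 8.32 and 12.2. By its weaker rank NW_023416311.1:92345533-92346449 was stronger, with ranks of 37534 and 31015 and folds of 13.5 and 15.9. The first on the putamen side was NW_023416295.1:54534619-54535389, with full-list ranks of 30770 and 37452 and folds of 11.7 and 8.28. Those ranks lie far down among the 50000, and no region passed when the 20000 strongest were used. Where a shared peak needed a reciprocal overlap of at least 50%, the counts were 430 for caudate and 283 for putamen.

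In these lists, more regions differed in strength between the parts than in the other divisions. There were 3402 regions (5.28% of 64392) strong in both caudate libraries and in neither putamen library, and 3195 (4.96%) strong in both putamen libraries and in neither caudate library. Between bats the counts were 986 (1.53%) for bat 1 and 810 (1.26%) for bat 3, and in the crossed division they were 893 (1.39%) and 457 (0.71%). Each count for a part was above 3 times the highest of the other divisions. Those divisions have caudate and putamen on both sides and so give no chance level. Leaving out 1 library, which asks less of a region, gave 5097 to 6229 caudate and 4397 to 6949 putamen regions, both highest without the putamen library of bat 1. No such counts are given for the other divisions. Of the 3402 caudate regions 98.0% still had a peak in both putamen libraries, and of the 3195 putamen regions 97.9% had one in both caudate libraries. At the caudate regions the median fold was 10.7 and 11.4 in the caudate of bats 1 and 3 against 6.60 and 5.17 in the putamen. At the putamen regions it was 10.3 and 8.50 in the putamen of bats 1 and 3 against 6.91 and 6.86 in the caudate.

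Ranks were then made again from 1 to 127314 among the regions with a peak in all 4 libraries, so that every library had the same scale. Both caudate ranks lay above both putamen ranks at 31311 regions (24.6%), and both putamen ranks above both caudate ranks at 31277 (24.6%). The division by bat gave 16612 (13.0%) and 17039 (13.4%) such regions, and the crossed division gave 17170 (13.5%) and 13881 (10.9%). Regions whose ranks lay apart by a gap of more than 2-fold, from the weaker library of the higher part to the stronger library of the lower part, are called separated here. There were 1009 (0.793%) on the caudate side and 1249 (0.981%) on the putamen side, against 182 (0.143%) and 131 (0.103%) between bats and 35 (0.0275%) and 18 (0.0141%) in the crossed division. Without 1 library the counts, of the 127314 regions, were 1600 to 3787 on the caudate side and 1937 to 3391 on the putamen side. They were again highest without the putamen library of bat 1. Leaving out a library asks less of a region, and no such counts are given for the other divisions. At a gap of more than 4-fold the counts were 12 on the caudate side and 41 on the putamen side, 13 and 9 between bats, and 0 and 0 when crossed, so there the caudate count was no higher than that between bats. When intervals were ranked by fold enrichment instead of -log10 p, 992 of the 1009 and 1244 of the 1249 had ranks that did not overlap in the same direction, but only 744 and 842 of them were still separated by more than 2-fold. The 2-fold rule on ranks by fold gave 2427 caudate and 1562 putamen regions in all.

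**Figure D1:**
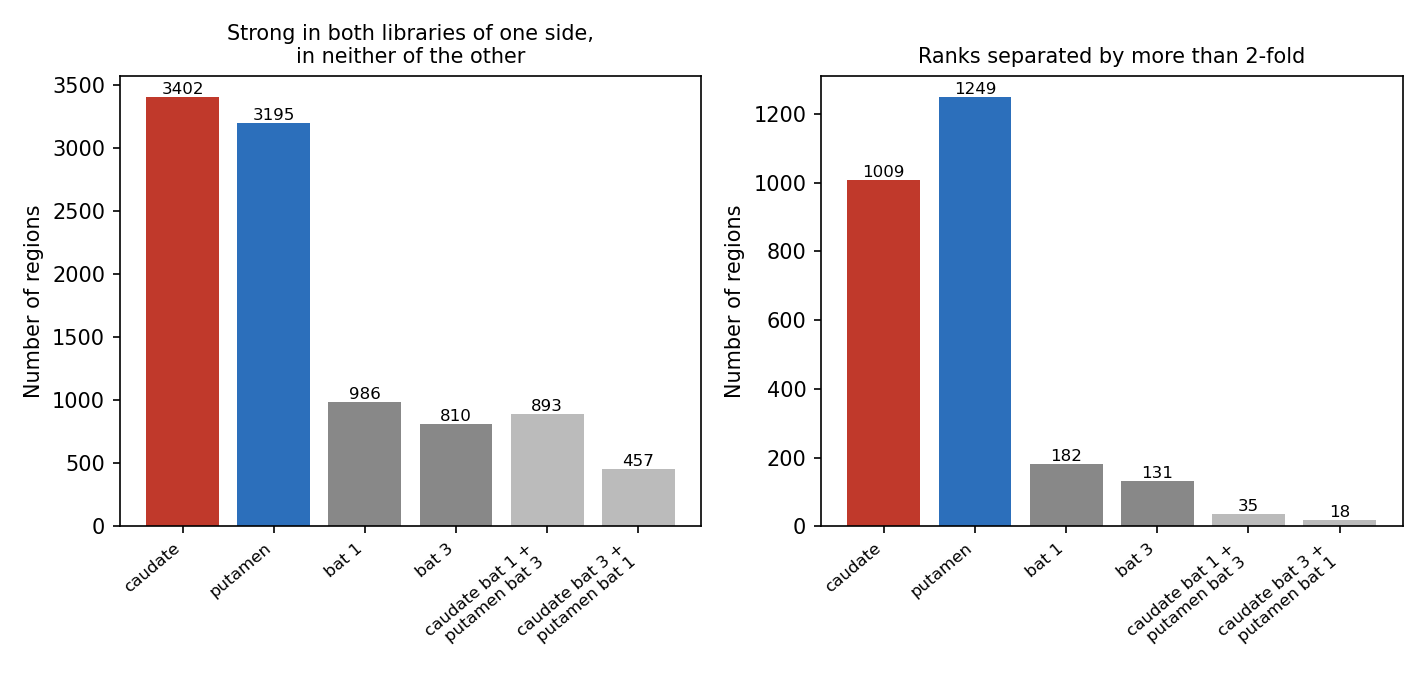
Number of regions (vertical axes) on each side of the 3 possible divisions of the 4 libraries, by part (red and blue), by bat (dark grey) and crossed (light grey); left, strong in both libraries of a side and in neither of the other, and right, ranks separated by more than 2-fold. Both parts, at 3402 and 3195 on the left and 1009 and 1249 on the right, stand above the other 4 bars of each panel.

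The test across all regions did not call these differences. The moderated test of limma on log2 ranks, with its default settings and Benjamini-Hochberg adjustment over 127314 regions, called 0 regions (0.0%) in either direction, with a smallest adjusted p of 0.0886. At an unadjusted p under 0.05 it had 12150 regions higher in caudate and 11783 in putamen, against 1971 and 1343 in the division by bat and 1634 and 653 in the crossed division. In simulated data with 200 of 127314 regions changed, this default recovered 0 of the 200. With limma's variance trend, adopted after both results had been seen, 872 regions were higher in caudate (0.685%) and 1249 in putamen (0.981%), or 1.67% together, and 0 in the other divisions (1940 and 1374 between bats and 830 and 329 crossed at an unadjusted p under 0.05). In the divisions by bat and crossed, the difference between the parts enters the spread. This raises their p values under either fit, so their low counts give no chance level. With the trend, a block for the bat raised the counts between the parts to 4635 and 4627, or 7.27% together. The 1249 putamen calls and the 1249 separated putamen regions are different sets that share 939. With the trend the calls fell to 0 and 0 when ranked by fold enrichment. A fit without 1 library takes its spread from the pair of the other part alone and assumes that the lone library varies like that pair. Such fits called 0 and 0 without either caudate library, where the spread comes from the less alike putamen pair, 2510 and 3804 without the putamen library of bat 1, and 301 and 1698 without that of bat 3. On simulated ranks the fit with the trend recovered 0 of 50 regions changed 2-fold and 1 of 50 changed 4-fold. It recovered 16 of 50 changed 8-fold and 44 of 50 changed 16-fold. The regions it called in the data had a median rank difference of 2.74-fold on the caudate side and 2.72-fold on the putamen side. With only 200 of 127314 regions changed, the adjusted threshold was harder to pass than where many regions differ. The simulated spread was also given added scatter between regions. The simulation thus gives no detection limit for these data. Since the calls moved with the fit, the regions below are described by their ranks, and no adjusted p is given for them.

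The rank differences between the parts tended to go the same way in both bats. Over the 127314 regions, the log2 rank difference of bat 1 correlated with that of bat 3 at a Pearson r of 0.463 (Spearman 0.398), and 63.0% of regions had the same sign. The matching difference between bats, taken once in caudate and once in putamen, correlated at 0.07 (Spearman 0.02), with 50.8% of the same sign. These correlations run across regions, which are not independent replicates, and each library enters 1 difference of a pair. Regions chosen in one bat only can be read in the other. Of 3520 regions ranked at least 2-fold higher in the caudate of bat 1, 78.7% were also higher in the caudate of bat 3 and 40.3% by at least 2-fold, against 48.8% and 5.36% of all regions. Of 3941 ranked at least 2-fold higher in the putamen of bat 1, 89.4% kept that direction in bat 3 and 41.5% by at least 2-fold, against 51.2% and 4.42% of all. Chosen in bat 3 and read in bat 1, 87.1% of 6828 caudate regions kept their direction and 20.8% reached 2-fold, against 50.8% and 2.76% of all. Of 5629 putamen regions 77.2% kept their direction and 29.1% reached 2-fold, against 49.2% and 3.10% of all.

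**Figure D2:**
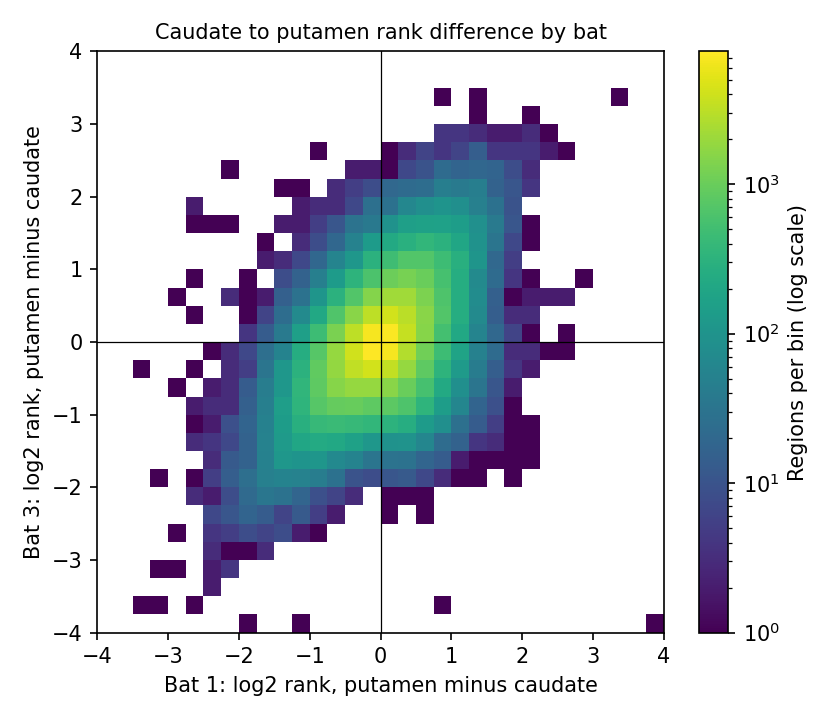
Each bin holds regions by their log2 rank difference, putamen minus caudate, in bat 1 (horizontal axis) and bat 3 (vertical axis), with colour for the number of regions on a log scale; positive values mean a higher rank in caudate, and values beyond 4 in either direction sit in the edge bins. The cloud leans along the diagonal, with 63.0% of the 127314 regions of the same sign in both bats.

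The regions with the largest gaps show the upper end of the differences. The median rank difference was 1.19-fold over all tested regions. It was 2.74-fold over the regions separated towards caudate and 2.78-fold over those separated towards putamen. The largest gap of all was on the putamen side, at NW_023416307.1:80292336-80293260, a region of 925 bp with ranks of 3582 and 3208 in the putamen of bats 1 and 3 and of 37258 and 39495 in the caudate. Its fold enrichment was 26.2 and 22.0 in putamen against 13.5 and 13.3 in caudate. In both bats it was among the strongest regions of the putamen, and the gap to the caudate was 10.4-fold, although all 4 libraries had a peak there. The second gap, 8.08-fold, was at NW_023416308.1:102935490-102936476, with putamen ranks of 2452 and 2416 and caudate ranks of 19820 and 29837. At the third, NW_023416307.1:82416192-82416950, the putamen ranks were 6132 and 7225 and the caudate ranks 50569 and 68693. The first and the third lie on the same scaffold, as does the eleventh, NW_023416307.1:87915263-87915937, with putamen ranks of 8332 and 7365 and caudate ranks of 46127 and 40996. At NW_023416285.1:45877218-45878072 the ranks were 15837 and 16007 in putamen and 85854 and 98345 in caudate, and the fold was 17.2 and 13.7 against 6.01 and 4.90.

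On the caudate side the largest gap was 5.98-fold, at NW_023416306.1:89205556-89206412, with caudate ranks of 9530 and 9857 in bats 1 and 3 and putamen ranks of 58921 and 62689. Its fold was 23.6 and 22.6 in caudate and 8.31 and 6.53 in putamen. At NW_023416310.1:34872073-34873339 the caudate ranks were 20186 and 18790 and the putamen ranks 100533 and 118970, and this region had no peak in any of the 16 lists of other tissues. NW_023416287.1:28604788-28605621 was likewise without a peak in the other 16 lists, with caudate ranks of 19469 and 17371 and putamen ranks of 91377 and 113844. Its fold was 17.5 and 19.4 in caudate and 5.01 and 3.27 in putamen. The strongest of the 12 caudate regions by rank was NW_023416286.1:46280815-46281709, at 3108 and 2658 in caudate and 13541 and 14233 in putamen, with folds of 27.7 and 30.2 against 23.1 and 17.2. The 2 libraries of a part were not always close: at NW_023416309.1:87806902-87807460 the putamen ranks were 34684 and 60134 and the caudate ranks 7959 and 7527. Across the 12 regions with the largest gap in each direction the gap between the parts ran from 4.04-fold to 5.98-fold on the caudate side and from 4.90-fold to 10.4-fold on the putamen side. These regions were picked for their gap, so the gaps are a description.

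**Figure D3:**
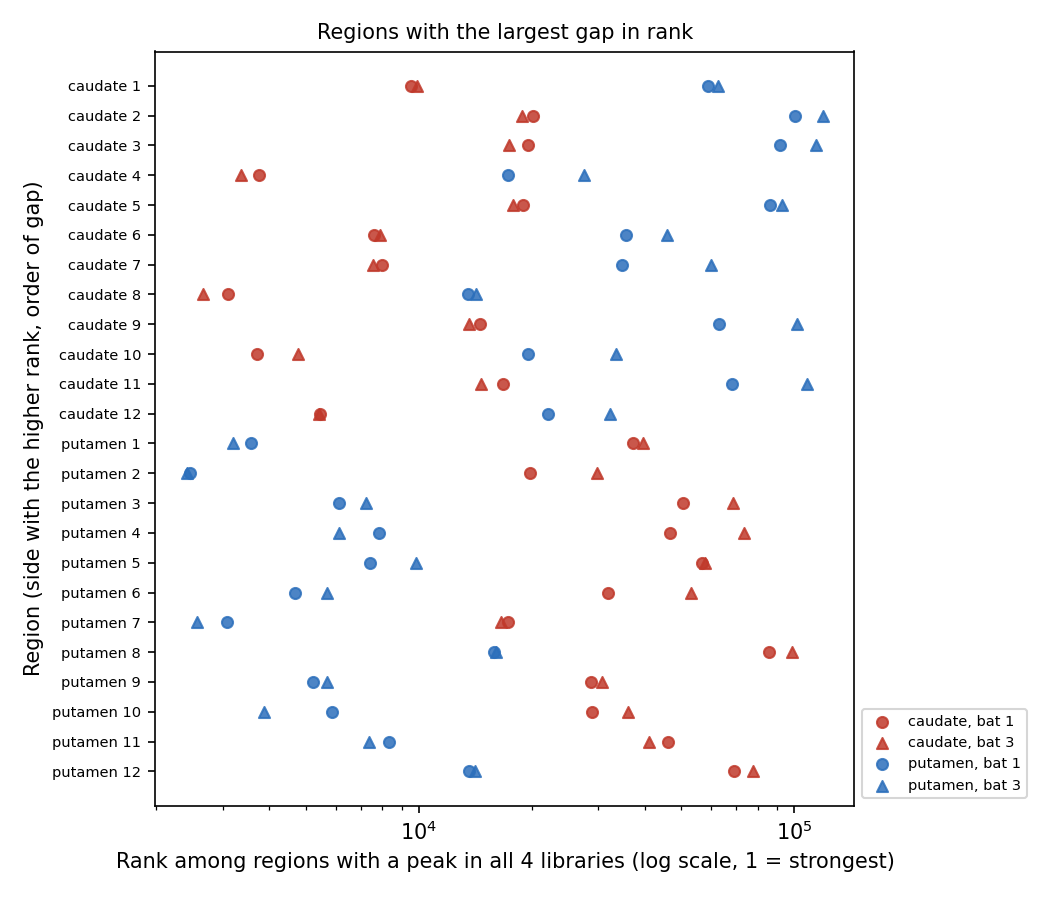
Ranks (horizontal log axis, lower is stronger) of the 12 regions with the largest gap in each direction, 1 line per region in order of gap; red is caudate, blue is putamen, circles are bat 1 and triangles are bat 3. The points of one colour lie to one side of the other colour in all 24 regions, as the choice of regions requires.

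The 2 sets of regions differed in how they looked in other tissues, a measure the choice of regions did not use. Of the 12 putamen-side regions above, 10 had a peak in all 8 cortical lists and 2 in 7. Of the 12 caudate-side regions, 6 had a peak in no cortical list, 1 in 3 and 5 in all 8. The separated regions as a whole showed the same contrast. In the 8 cortical lists 41.5% to 52.8% of the 1009 caudate regions had a peak, against 68.9% to 94.3% of the 1249 putamen regions and 66.2% to 72.5% of all regions tested. The putamen value was lowest in the premotor library of bat 3, at 68.9%, and at least 84.4% in the other 7. No cortical list had a peak at 38.9% of the caudate regions and 4.40% of the putamen regions, against 19.6% of all tested. All 8 cortical lists had one at 34.7% of the caudate regions and 65.7% of the putamen regions, against 55.4% of all. The shares of all regions were not matched for rank, and openness in cortex moved with rank. All 8 cortical lists had a peak at 8529 of the 9153 regions with mean ranks up to 10000. They had one at 7518 of the 24487 with mean ranks over 100000, a band without separated regions. How far the gaps to all tested regions go with rank was not tested. Among the separated regions, the shares with no cortical peak and with all 8 moved with the library left out, while their order held. Without the putamen library of bat 3, 33.6% of caudate and 12.3% of putamen regions had no cortical peak and 41.7% and 60.8% had all 8. Without the putamen library of bat 1, 38.2% and 2.15% had none and 35.6% and 79.8% had all 8. Without the caudate library of bat 1 the shares with none were 38.9% and 3.83%, and without that of bat 3 33.6% and 6.14%.

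The contrast was not limited to cortex. In the 2 cerebellar lists 24.2% and 28.5% of the caudate regions had a peak, against 77.0% and 71.7% of the putamen regions and 50.2% to 50.7% of all tested. In liver, muscle and testis the caudate regions ranged from 17.2% to 39.6% and the putamen regions from 31.9% to 57.5%, against 21.6% to 45.0% of all. In each of the 16 lists the putamen share was above the caudate share. No other tissue list held 17.3% of the caudate regions and 1.36% of the putamen regions, against 9.54% of all, and all 16 held 1.68% and 13.6%, against 7.86% of all. Here too the shares of all regions were not matched for rank.

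**Figure D4:**
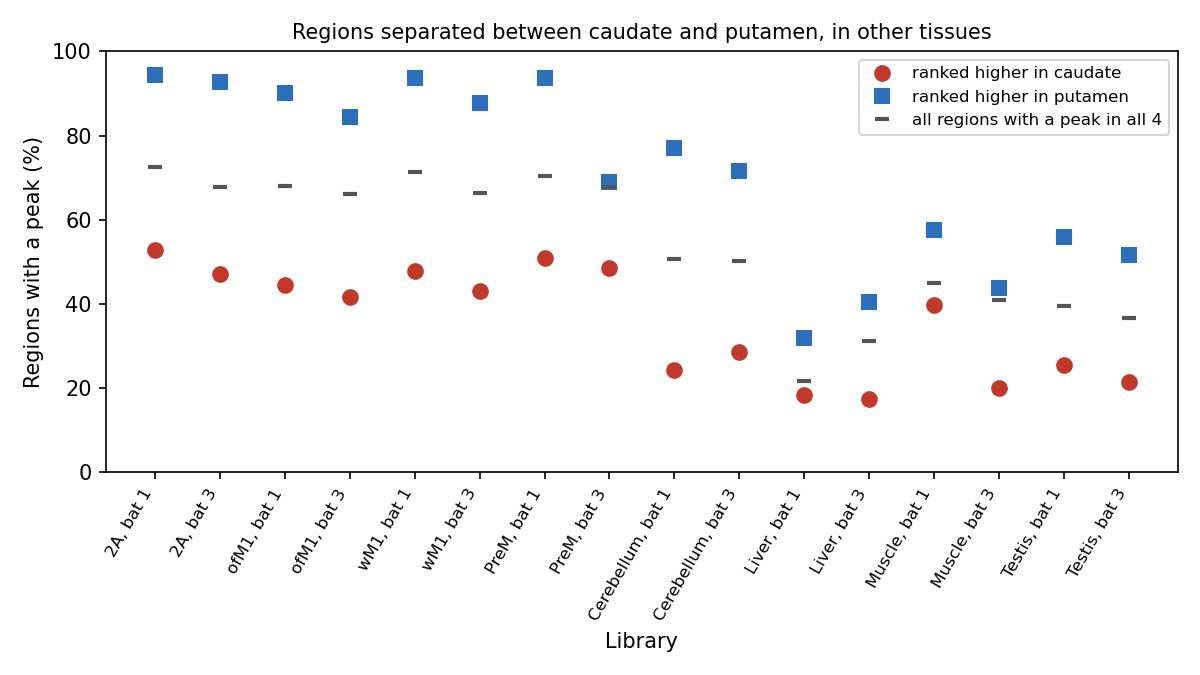
Share of regions with a peak (vertical axis, percent) in each of the 16 ATAC-seq lists of other tissues (horizontal axis; 2A is secondary auditory cortex, ofM1 and wM1 the orofacial and wing motor cortex, PreM the premotor area); red circles are the 1009 regions separated towards caudate, blue squares the 1249 separated towards putamen and dashes all 127314 regions. In every list the blue square is above the red circle, and in cortex the circles sit between 41.5% and 52.8%.

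The regions strong on one side gave the same order. Of the 3402 strong in caudate only, 38.4% had a peak in no cortical list and 33.3% in all 8, and of the 3195 strong in putamen only these shares were 7.36% and 72.9%. Regions strong in all 4 striatal libraries had shares of 9.93% and 80.1%.

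Read the other way, over all 127314 regions the share higher in caudate moved with openness elsewhere. Of all these regions, 50.8% ranked higher in the caudate in bat 1 and 48.8% in bat 3. Of the 24950 regions with no peak in any cortical list, 67.2% had the higher mean rank in caudate. Of the 31814 with a peak in 1 to 7 cortical lists 52.1% did, and of the 70550 with a peak in all 8, 41.4% did. Of the 10002 open in all 16 other lists, 33.6% did, and of the 12145 open in none, 68.5% did. Openness in cortex alone did not go with putamen: among 5360 regions with a peak in all 8 cortical lists and in no cerebellar or peripheral list, 60.9% were higher in caudate. Among 2964 regions with a peak in all 8 cortical and both cerebellar lists and no peripheral list, 38.3% were. Regions with a peak in at least 1 of liver, muscle and testis but in neither cortex nor cerebellum leaned to caudate, at 68.8% of 8023, as did those open in both cerebellar lists and in no cortical or peripheral list, at 60.2% of 826. Among the classes that fix both cortex and cerebellum, those open in all 8 cortical and both cerebellar lists leaned to putamen and those missing from either tissue leaned to caudate.

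Peak strength moves with openness, so the shares were also taken by mean rank. Among regions with no cortical peak, the share higher in caudate went from 80.7% at mean ranks up to 10000 to 56.7% at ranks over 100000, and it was above 50% in all 6 bands. Among regions in 1 to 7 cortical lists it moved more with rank, from 87.5% at ranks up to 10000 to 44.1% over 100000, and so passed 50%. Among regions open in all 8 cortical lists it was 49.8% at ranks up to 10000 and 38.6% to 42.5% in the other 5 bands. Among those open in all 16 other lists it was 42.8% up to rank 10000 and 21.7% to 25.4% in the 4 weaker bands that held enough regions. Libraries of other tissues came from the same 2 bats, so the cortical lists of one bat were set against the striatum of the other. With the striatum of bat 3 and the cortex of bat 1, 70.6% of the regions with no cortical peak and 39.1% of those in all 4 cortical lists were higher in caudate. With the striatum of bat 1 and the cortex of bat 3, the shares were 55.7% and 49.6%, a smaller contrast in the same direction. Of all regions 48.8% were higher in the caudate of bat 3 and 50.8% in that of bat 1, so the 49.6% lay close to the share of all.

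**Figure D5:**
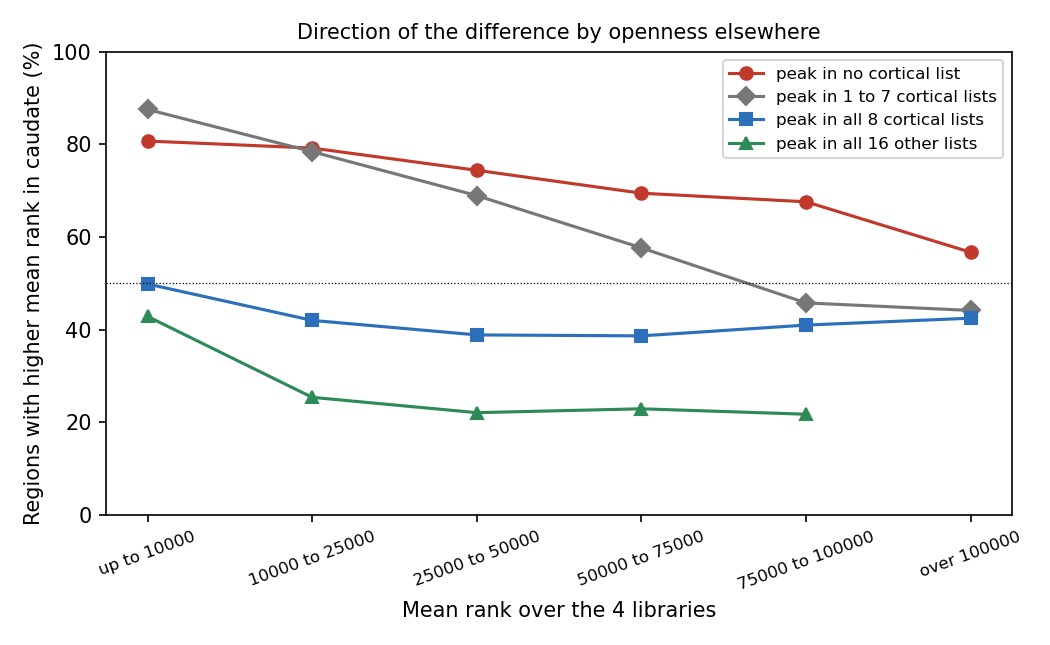
Share of regions with the higher mean rank in caudate (vertical axis, percent; the dotted line is 50%) by band of mean rank over the 4 libraries (horizontal axis), for regions with a peak in no cortical list, in 1 to 7, in all 8 and in all 16 other lists. Regions with no cortical peak stay above 50% in every band and regions open in all 16 other lists stay below it. Regions in 1 to 7 cortical lists go from above 50% to below it.

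Separated regions were spread over the genome. They lay on 19 scaffolds, and 1145 of 1903 windows of 1 Mb with a tested region held at least 1, of which 376 held caudate regions only, 414 putamen regions only and 355 both. The window with the most caudate regions was NW_023416293.1 from 11 to 12 Mb, with 6 of 80 tested regions and no putamen region. On the putamen side NW_023416307.1 had 6 of 55 at 135 to 136 Mb and 6 of 61 at 9 to 10 Mb, with no caudate region in either. Of 242 neighbouring pairs of separated regions within 50 kb of each other, 167 (69.0%) went in the same direction, and of the 50 within 10 kb 30 did (60%), against 465 of 836 pairs (55.6%) that were 500 to 2000 kb apart. Most scaffolds held both kinds in numbers of the same order. NW_023416289.1 held 26 caudate and 4 putamen regions of 3993 tested, and NW_023416312.1 held 2 and 19 of 3334. These 2 scaffolds and the windows were chosen for their counts, so the counts are a description.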

How the data were processed

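The authors deposited 1 narrowPeak list per ATAC-seq library, so peaks were called per library. Each deposited row gives, by the narrowPeak layout, the authors' fold enrichment (a ratio to background) and their -log10 p. The submitters' processing notes name Bowtie2 and MACS2 but not what each did. For genome build and filters, the sources used here give nothing, and read depth is unknown. Lists end at 300000 rows.

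Rows of 1 interval were joined, keeping the highest fold and -log10 p. Regions, ranks and limma 3.58.1 (R 4.3.3, Python 3.11.15) are as described above. Code was tested on simulated ranks. Replicates are separate bats, and same-numbered libraries come from 1 animal by the labels, which pairs them. The main fit had no block and so did not use the pairing. The default fit called 0 regions with or without a block. With the variance trend a block moved the calls from 872 and 1249 to 4635 and 4627. The correlation of 0.07 for the difference between bats runs across regions and does not measure the effect of the bat at single regions. Regions named are the 12 with the largest gap per direction, and up to 8 per direction strong in one part and absent from the other. Scaffolds, windows and single examples were picked after their values were seen.

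The comparison and its lists were chosen with earlier results of these data known. The counts led with (strong on one side, gap over 2-fold) and limma's variance trend were taken up after their values and the default's count of 0 had been seen. The reference places none of its 36769 genes on a scaffold, so gene lists, promoters and markers were not analysed here, and no sequence is given. The 12 RNA-seq libraries were not used here.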

Additional observations from a re-analysis of the deposited data

How the results depend on the processing

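Counts moved with the settings, while in each setting whose regions were matched to other tissues a smaller share of putamen than of caudate regions lacked a cortical peak. Strong in one part and absent from the other (4 caudate, 5 putamen) became 0 and 0 with 20000 strongest intervals, 529 and 559 with 100000, 9523 and 9066 with every interval, 3402 and 3195 with absent meaning not strong, 14 and 22 ranked by fold, 430 and 283 with a reciprocal overlap of 50%, and 7 for caudate with trimmed lists. Leaving out each library gave 4 to 64 for caudate and 14 to 57 for putamen. Strong on one side and not on the other became 1456 and 1326 with 20000, 6106 and 5978 with 100000, and 5097 to 6229 and 4397 to 6949 without 1 library. Non-overlapping ranks were 16571 and 16753 among regions strong in any library. Separated caudate regions were 2427 ranked by fold, and without 1 library there were 1600 to 3787 caudate and 1937 to 3391 putamen regions.

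The default limma fit called 0 with a replicate block and in the other alternatives, except over all merged regions and at mean ranks under 60000. Over all merged regions it called 1543 and 1933. There every missing peak of a library was given the same tied rank, which is not a measured value. At mean ranks under 60000 the default fit called 432 and 559. With a variance trend it called 872 and 1249. With that trend the counts were 4635 and 4627 with the replicate block, 1642 and 2033 with quantile-normalised -log10 p, 188 and 430 with the 100000 strongest in at least 2 libraries, 1709 and 2149 over all merged regions, 875 and 1258 merged across 150 bp, 905 and 1249 at 1 interval per library, 772 and 1083 trimmed, and 1097 and 1069 at mean ranks under 60000. Without the putamen library of bat 1 they were 2510 and 3804, without that of bat 3 301 and 1698, and without either caudate library, or ranked by fold, 0 and 0. The variance trend and the mean-rank filter were chosen after seeing the data. The cause of each change was not tested. Peak lists carry no depth.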
